A study of Mus musculus with 6 samples.

Results

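miR-375 is an islet-enriched microRNA that took 23.2% to 43.8% of the reads of each library studied here. Its level was followed in pancreatic islets of mice labelled HFD-fed, against islets of mice labelled NCD-fed, with 3 libraries per diet. It was taken by name from the count table. Of the 2 arm names sought, mmu-miR-375-3p was found among the 1011 listed miRNAs and mmu-miR-375-5p was not analysed here, so the miR-375 set had 1 measured member and no ratio of its arms could be formed. Of the listed rows, 958 carry mouse miRNA names and 406 passed the filter on low counts. Small RNA was sequenced from primary islets, the hormone-secreting cell clusters of the pancreas, and diet is the only difference between groups that the labels give. They name no strain, sex, age or feeding time, and do not say whether a library came from 1 animal or a pool, so p-values measure the spread between these libraries. In bulk islet RNA, fewer cells of a type and less RNA per cell cannot be told apart.

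A microRNA is cut from a hairpin transcript, and 1 of its arms, loaded into an Argonaute protein, guides the silencing of mRNAs that pair with its seed, bases 2 to 8. miR-375 is known as a pancreatic endocrine miRNA, found in beta cells and in the other hormone cells of the islet. In mouse cells it restrains insulin secretion through the cytoskeletal regulator Mtpn, and mice that lack it have fewer beta cells and more alpha cells. Its gene is bound by the islet transcription factors Pdx1 and NeuroD1.

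The sequences of the mature arms and the hairpin are shown because the identity of the counted molecule decides whether its reads can be shared with another row. The 3p arm is printed as the deposited table gives it, and the 5p arm and the hairpin are from RefSeq (GRCm38.p6). Capitals mark the seed in the mature arms and both mature arms in the hairpin.
miR-375-3p: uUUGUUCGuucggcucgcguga
miR-375-5p: gCGACGAGccccucgcacaaac
mir-375 hairpin: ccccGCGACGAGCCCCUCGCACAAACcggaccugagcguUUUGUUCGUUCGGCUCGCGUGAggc

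The hairpin gene, Mir375 (ENSMUSG00000065616.3), lies on the minus strand of chromosome 1 from 74900658 to 74900721. The 3p arm covers 74900661 to 74900682 and the 5p arm 74900696 to 74900717. No other gene of GENCODE M21 overlaps the hairpin. The nearest protein-coding genes are Cfap65, 1350 bases away towards higher coordinates, and Cryba2, 7515 bases away towards lower coordinates. Fev, which encodes a transcription factor, lies 15239 bases away beyond Cryba2.

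The 3p sequence stands alone in the table. No other listed row had the same seed, and none had the same bases 2 to 7. The nearest listed sequences were at an edit distance of 8 (3 rows), and none came closer than 9 to its reverse complement. No other row shared 12 bases in a run with the hairpin on either strand, the predicted miRNAs included. The 3p arm holds 4 CG dinucleotides in its 22 bases, and 4 or more were found in 1.25% of the 958 mouse miRNA rows, whose median was 0. The hairpin has 64 bases and a GC content of 67.2%. In its minimum free energy fold (-26.8 kcal/mol, RNAfold), 17 of the 22 bases of the 3p arm were paired, 16 of them to the 5p arm.

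miR-375-3p had 3174029, 3306078 and 2566704 reads in HFD 1, 2 and 3. It had 3140743, 3745866 and 2403605 reads in NCD 1, 2 and 3. Library totals were 10678638, 9431818 and 11059628 reads in the HFD libraries, and 7166712, 11172255 and 8121430 reads in the NCD libraries. The NCD libraries held both the most and the fewest reads of miR-375-3p.

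As a share of all reads, miR-375-3p took 29.7%, 35.1% and 23.2% of HFD 1, 2 and 3, against 43.8%, 33.5% and 29.6% of NCD 1, 2 and 3. The diets overlapped: HFD 2 lay above NCD 2 and NCD 3, while HFD 3 was the lowest and NCD 1 the highest of the 6. The mean share was 29.3% ± 5.93 (SD, n = 3) in HFD islets, against 35.6% ± 7.35 (SD, n = 3) in NCD islets, a difference of -6.32 percentage points. The two-sided exact permutation test gave p = 0.5, where 3 against 3 libraries cannot go below 0.1. Counting error was small beside this spread, since the 95% Wilson interval of each share reached at most 0.0363 points to either side. The difference was -2.23 points without NCD 1 and -3.26 points without HFD 3, and 11.6% of the tested miRNAs had shares that did not overlap between diets.

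**Figure D1:**
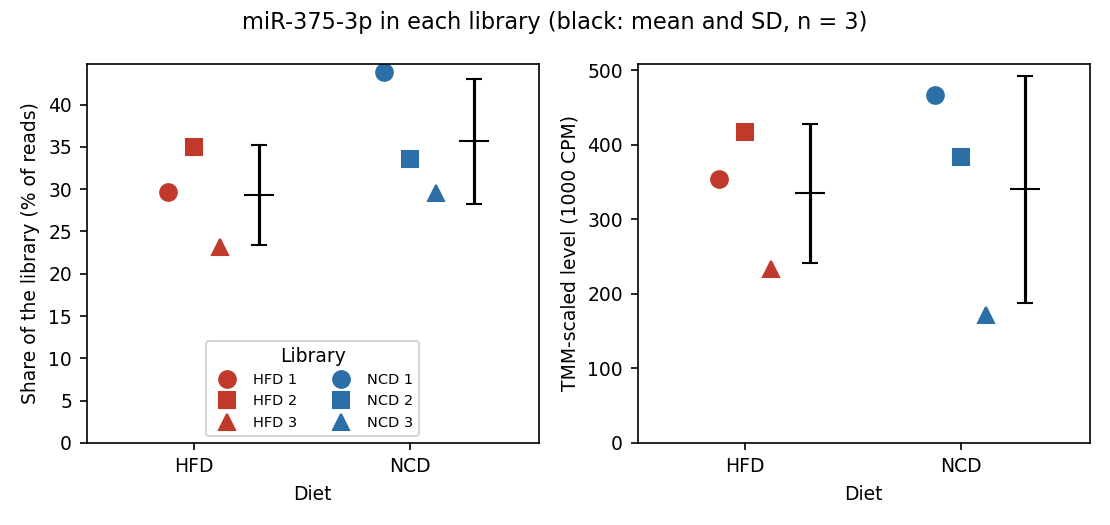
Share of reads (left panel, percent of the library total) and TMM-scaled level (right panel, in units of 1000 CPM) of miR-375-3p in the 3 HFD and 3 NCD libraries, with the mean and SD of each diet in black. The diets overlap on both scales, and NCD 3 moves from 29.6% of reads, close to HFD 1, to the lowest level of the 6 libraries.

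miR-375-3p was the most abundant miRNA in HFD 2 and in each of the 3 NCD libraries. In HFD 1 and HFD 3 it came after miR-148a-3p, so the name of dominant islet miRNA held by rank for 4 of 6 libraries. miR-148a-3p, which in mouse beta cells is known to promote insulin expression, and miR-7a-5p, known in mice to hold back both insulin release and the division of beta cells, were the next in abundance, and their sequences show no shared seed with miR-375-3p.
miR-148a-3p: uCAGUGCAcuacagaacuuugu
miR-7a-5p: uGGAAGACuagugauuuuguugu

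Mir148a lies on chromosome 6 from 51269812 to 51269910, outside other annotated genes. miR-7a-5p has hairpins on chromosome 13 from 58392779 to 58392886, within Hnrnpk outside its annotated exons, and on chromosome 7 from 78888277 to 78888373, outside other genes. Comparing abundance between different miRNAs is limited by the ligation step, which favours some RNA ends, whereas the ratio of 2 miRNAs can be compared between libraries.

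The ratio of miR-375-3p reads to miR-148a-3p reads was 0.874, 1.05 and 0.844 in HFD 1, 2 and 3, against 1.91, 1.14 and 1.13 in NCD 1, 2 and 3. Each HFD library lay below each NCD library, and HFD 2 and the lowest NCD library were close. The mean log2 ratio was -0.13 ± 0.17 (SD, n = 3) in HFD islets, against 0.43 ± 0.44 (SD, n = 3) in NCD islets, a difference of -0.56 that was -0.30 without NCD 1. Over all 405 other tested miRNAs, the ratio of miR-375-3p to the other miRNA did not overlap between diets with HFD lower for 3.21%, and with HFD higher for another 3.21%. The values of this pair were already known from earlier results of these data, so no test is given.

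The ratio to miR-7a-5p differed less between diets than within them. It was 2.22, 3.35 and 1.11 in HFD 1, 2 and 3, against 3.58, 2.33 and 1.95 in NCD 1, 2 and 3. HFD 2 exceeded NCD 2 and NCD 3, and HFD 3 was the lowest, in the library where miR-7a-5p took 21.0% of reads.

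**Figure D2:**
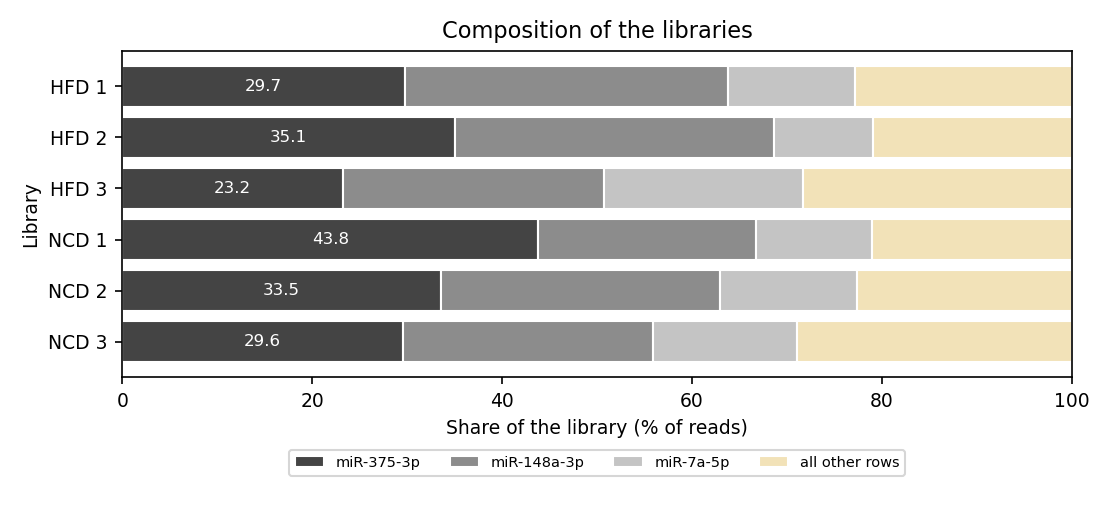
Share of reads (percent, horizontal axis) taken by miR-375-3p, miR-148a-3p, miR-7a-5p and all other rows in each library. miR-375-3p ranges from 23.2% in HFD 3 to 43.8% in NCD 1, and is narrower than the miR-148a-3p segment in HFD 1 and HFD 3.

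To compare levels between diets, counts were expressed per 1000000 reads (CPM) of library totals scaled by TMM factors, which set the scale from the bulk of miRNAs after trimming those with extreme ratios or levels. On this scale miR-375-3p had 353502, 417285 and 233385 CPM in HFD 1, 2 and 3, and 465924, 383928 and 170905 CPM in NCD 1, 2 and 3. The NCD libraries held both the highest and the lowest value, and all HFD libraries lay between them. HFD islets averaged 334724 ± 93377 CPM (SD, n = 3), against 340253 ± 152282 CPM (SD, n = 3) in NCD islets.

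The log2 fold change of miR-375-3p was -0.02 with a standard error of 0.42, HFD over NCD, and its 95% interval ran from -0.92 to 0.88, or from 0.527-fold to 1.84-fold. It did not pass the edgeR quasi-likelihood test (unadjusted p = 0.956, Benjamini-Hochberg adjusted p = 0.977 over 406 miRNAs). The interval does not show that the level is the same in both diets. In this test 0.246% of the tested miRNAs passed an adjusted p of 0.05, which was 1 miRNA, miR-146a-5p, and levels did not overlap between diets for 15.3%. The sign of the miR-375-3p fold change was not stable. Leaving out HFD 3 gave 0.12 on the log2 scale, leaving out NCD 1 gave 0.22, leaving out NCD 2 gave 0.068, and leaving out NCD 3 gave -0.37.

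**Figure D3:**
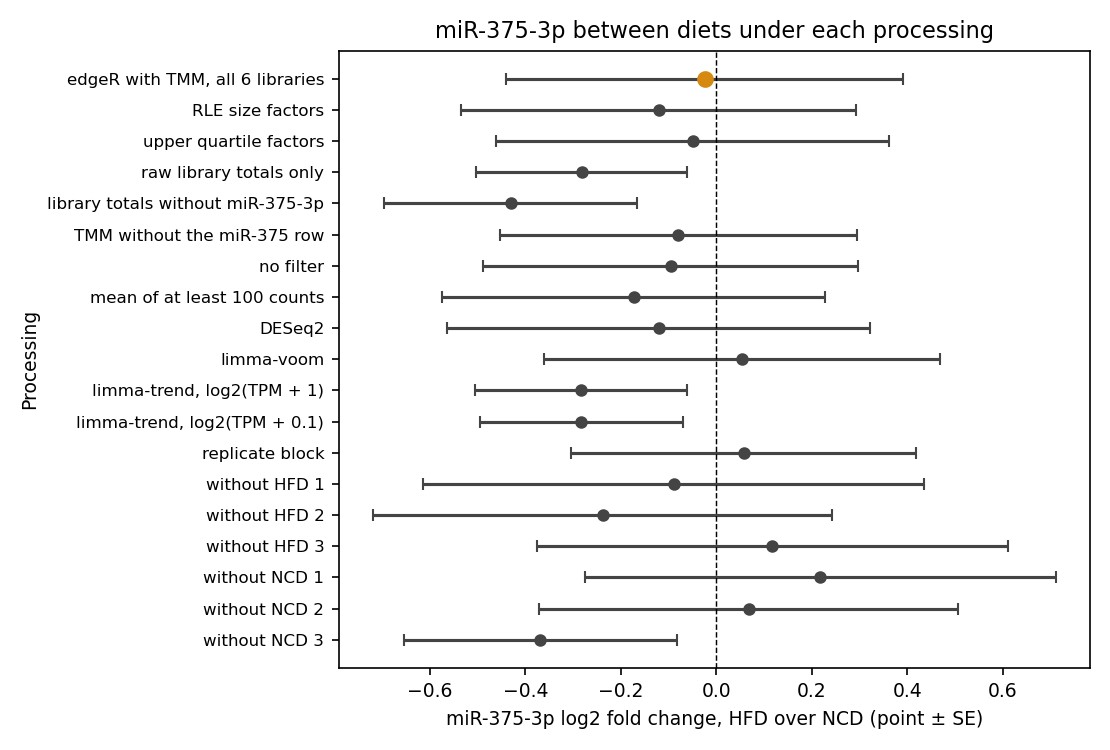
Log2 fold change of miR-375-3p, HFD over NCD (horizontal axis, point with standard error), under each processing (rows). Values run from -0.43 with library totals counted without miR-375-3p to 0.22 without NCD 1, and none passed an adjusted p of 0.05.

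Because miR-375-3p takes so many reads, it sets how many are left for all other miRNAs. The reads outside miR-375-3p were 7504609, 6125740 and 8492924 in HFD 1, 2 and 3, against 4025969, 7426389 and 5717825 in NCD 1, 2 and 3. NCD 1, with the highest miR-375-3p share and the smallest total, kept the fewest reads for the rest. Leaving miR-375-3p out of the total raises the CPM of every other miRNA by 1.42, 1.54 and 1.30 times in HFD 1, 2 and 3, and by 1.78, 1.504 and 1.42 times in NCD 1, 2 and 3. The factor is thus larger in the library where miR-375-3p takes more reads, whether or not any other miRNA differs. A count of 0, taken as at most 3 reads and covering counting error only, allows up to 0.353 to 0.490 CPM in HFD and 0.404 to 0.745 CPM in NCD libraries on totals without miR-375-3p.

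The libraries were made of few miRNAs with or without it. The effective number of miRNAs, the inverse of the summed squared shares, was 4.43, 4.02 and 5.57 in HFD 1, 2 and 3, against 3.82, 4.48 and 5.46 in NCD 1, 2 and 3. Without miR-375-3p it was 3.601, 3.35 and 4.70 in the HFD and 4.52, 3.995 and 5.19 in the NCD libraries. The number was lower without miR-375-3p in 5 of 6 libraries and higher without it in NCD 1.

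The composition of 2 libraries was compared by the summed absolute differences of their shares divided by 2, in percentage points. miR-375-3p had the largest difference of any miRNA in 5 of 6 pairs of libraries within a diet and in 4 of 9 pairs between diets. Its part of the summed differences, before the division by 2, had a median of 33.7% within diets and 27.9% between diets. Gains and losses of share are equal in sum, so the difference of a single miRNA cannot exceed the halved sum. NCD 1 and NCD 2 differed by 12.05 points, and by 10.3 points in miR-375-3p alone, which was 42.7% of the summed differences. With miR-375-3p left out of both and the shares recomputed, they differed by 5.10 points. HFD 2 and HFD 3, the farthest pair within a diet, differed by 19.4 points and still by 19.1 points without it. The pair of HFD 1 and NCD 3 had miR-375-3p shares within 0.127 points of each other, yet differed by 10.5 points.

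The scaling of the rest was then compared with and without miR-375-3p. With TMM factors the median log2 fold change of the 405 other tested miRNAs was 0.03. With library totals as the only scaling it was -0.38, and 297 of the 405 had a negative fold change, against 197 with TMM. With totals counted without miR-375-3p the median was -0.49 and 328 were negative. Leaving miR-375-3p out of the totals therefore moved the median farther from the TMM value, by -0.12 in the median miRNA.

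On these same scales miR-375-3p lay close to the middle of the others. A change of library factors moves the fold changes of all miRNAs nearly together, so its place among them could hardly differ between scalings. Its log2 fold change was -0.28 ± 0.22 (SE) with library totals and -0.43 ± 0.27 with totals without it, and neither passed (edgeR adjusted p = 0.716 and 0.455). Set against the median of the others, it was -0.05 with TMM, 0.10 with library totals and 0.06 with totals without it. With TMM 47.2% of the others had a lower log2 fold change, and with library totals 57.0% did.

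**Figure D4:**
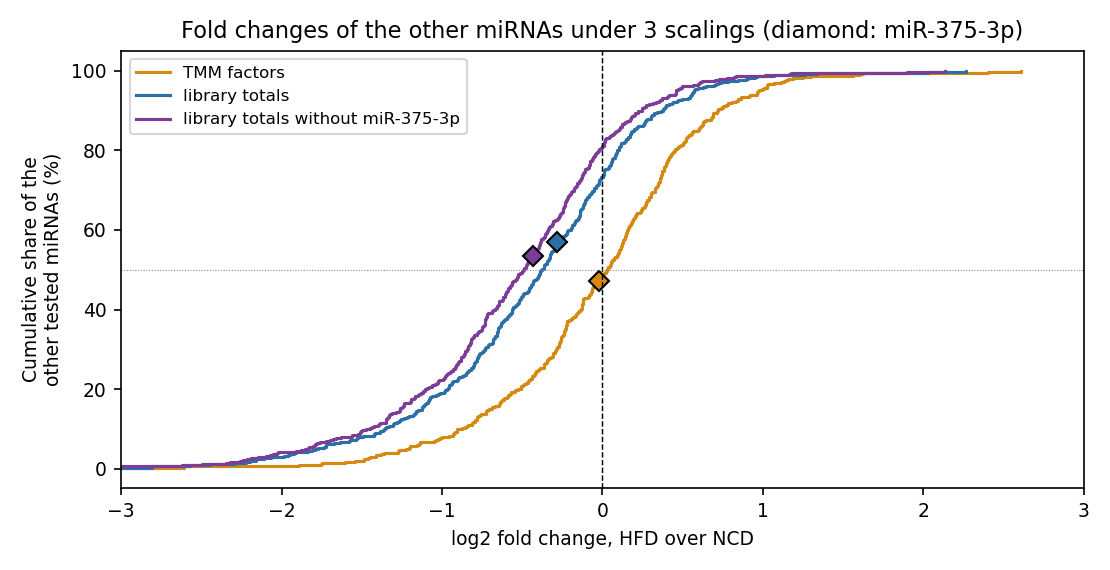
Cumulative share of the 405 other tested miRNAs (vertical axis, percent) by log2 fold change, HFD over NCD (horizontal axis, drawn from -3 to 3), under TMM factors, library totals and library totals without miR-375-3p, with miR-375-3p as a diamond on each curve. The curves shift left from a median of 0.03 to -0.38 and -0.49, and each diamond lies near the middle of its curve. A change of factors moves all miRNAs nearly together, so this place could hardly differ between scalings.

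TMM factors were computed with and without the miR-375-3p row. With it they were 0.841, 0.840 and 0.995 in HFD 1, 2 and 3, against 0.941, 0.873 and 1.73 in NCD 1, 2 and 3. With its row left out they were 0.820, 0.918 and 0.863 in HFD 1, 2 and 3, against 1.09, 0.927 and 1.52 in NCD 1, 2 and 3, on totals that no longer held it. The relative library sizes that result changed by -7.95% in NCD 3 to 5.63% in HFD 2. The log2 fold change of miR-375-3p was then -0.08 ± 0.37 (SE). NCD 3 stood apart with RLE and upper quartile factors as well, at 1.69 and 1.72, and its miR-375-3p level was 175146 and 172192 CPM on those scales, against 296062 CPM on library totals of the tested rows.

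The choice of scaling touched the call between diets. miR-146a-5p, induced by NF-kB and known to dampen inflammatory signalling, rose in HFD islets with a log2 fold change of 2.40 ± 0.34 (SE, edgeR adjusted p = 0.00434). With totals without miR-375-3p the log2 fold change was 1.90 and the adjusted p 0.0732. With library totals the adjusted p was 0.167. Under both scalings by totals edgeR called 0 miRNAs, while 42 had an unadjusted p under 0.05 with library totals (5 higher and 37 lower) and 63 with totals without miR-375-3p (4 higher and 59 lower), beside 34 with TMM (19 higher and 15 lower). DESeq2, with its own size factors, called 3. With the miR-375-3p row left out of the TMM factors the adjusted p of miR-146a-5p was 0.00404. The call also ended without NCD 1 (edgeR adjusted p = 0.0855).

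Ratios to other miRNAs listed for islet endocrine cells gave a measure of miR-375-3p that needs no size factor. Whether the members are limited to endocrine cells was not tested, so these ratios are not levels per endocrine cell. A list of 24 such miRNAs besides miR-375-3p was found in full among the listed rows, and each member was tested. Among them were miR-148a-3p, the miR-7 pair, the miR-200 family, miR-26a-5p and miR-30d-5p, miR-182-5p and miR-183-5p, miR-184-3p, miR-204-5p and miR-129-5p. The 24 miRNAs took 51.6% to 59.2% of reads in the HFD and 43.1% to 53.1% in the NCD libraries. Most of these reads came from few members. miR-148a-3p alone took 27.5% to 34.0% of reads in the HFD and 22.9% to 29.5% in the NCD libraries. miR-7a-5p took 10.5% to 21.0% and 12.2% to 15.2%. The mean log2 ratio of miR-375-3p to the list was 8.73, 8.92 and 8.11 in HFD 1, 2 and 3, against 9.43, 8.95 and 7.75 in NCD 1, 2 and 3. The diets overlapped, with NCD 1 highest and NCD 3 lowest by this mean. The diet means were 8.59 ± 0.43 (SD, n = 3) in HFD islets, against 8.71 ± 0.87 (SD, n = 3) in NCD islets. Their difference was -0.13, and it was 0.23 without NCD 1, 0.11 without HFD 3 and -0.61 without NCD 3. The lowest library depended on the summary. Over the 13 members with a mean of at least 1000 CPM, HFD 3 was lowest at 4.49, beside 4.57 in NCD 3. By the median log2 ratio HFD 3 was also lowest, at 7.24, beside 7.30 in NCD 3.

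By member, the log2 ratio of miR-375-3p was lower in HFD islets on average for 16 of 24 and higher for 8, with a median difference of -0.20. Over all 405 other miRNAs it was lower for 196 and higher for 209, with a median of 0.03. For 2 of the 24 the diets did not overlap, beside 3.21% of all miRNAs in each direction. The ratio to miR-148a-3p, given above, was lower in HFD islets. The ratio to miR-129-5p, a miRNA of neurons and endocrine cells, was 127, 119 and 113 in HFD 1, 2 and 3, against 96.3, 100.3 and 56.2 in NCD 1, 2 and 3. The difference of its log2 ratio was 0.55, and 0.28 without NCD 3.

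The other abundant miRNAs of the endocrine list overlapped between diets in their ratio to miR-375-3p. The difference of the mean log2 ratio, HFD minus NCD, was -0.70 for miR-200a-3p, which with the rest of the miR-200 family guards epithelial identity. Its ratio was 27.3, 42.9 and 19.0 in HFD 1, 2 and 3, against 81.8, 42.5 and 27.3 in NCD 1, 2 and 3, and the difference was -0.28 without NCD 1. For miR-7b-5p it was -0.38, for miR-7a-5p -0.33, for the imprinted miR-127-3p -0.30, for miR-200b-3p -0.24 and for miR-26a-5p -0.09. It was 0.12 for miR-30d-5p and 0.42 for miR-200c-3p. HFD 3 had the lowest ratio of the 6 libraries for 6 of these 10 miRNAs, miR-148a-3p and miR-7a-5p among them, and NCD 3 for the other 4, miR-30d-5p, miR-200c-3p, miR-127-3p and miR-129-5p.

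**Figure D5:**
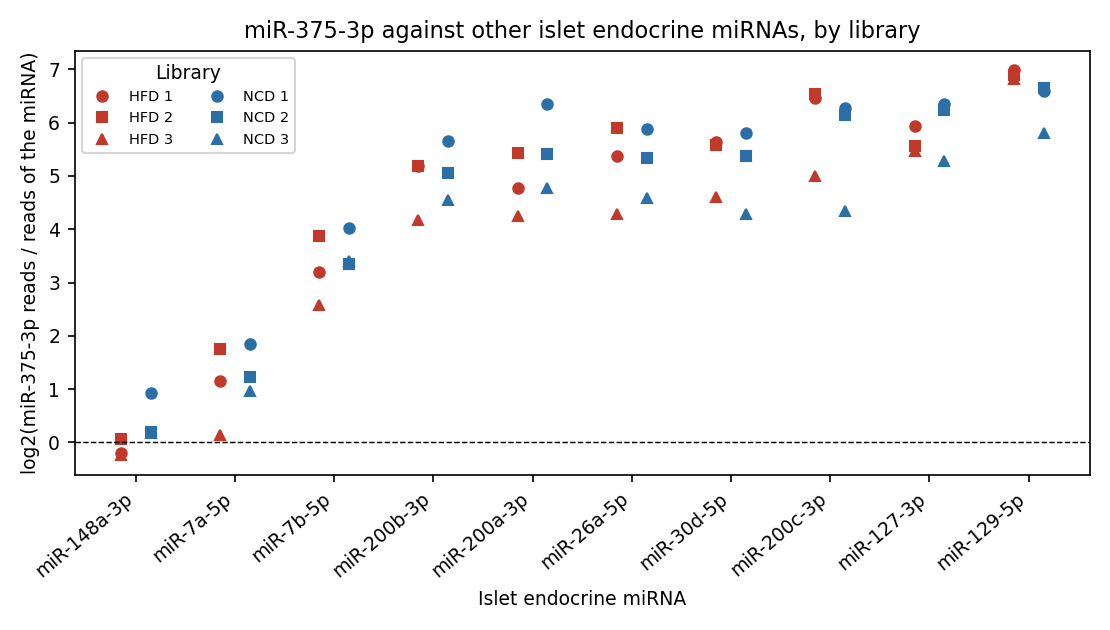
Log2 ratio of miR-375-3p reads to the reads of each of the 10 most abundant tested miRNAs of the islet endocrine list (vertical axis), by library, with HFD libraries left of NCD libraries for each miRNA (horizontal axis). The diets separate for miR-148a-3p, where HFD is lower, and for miR-129-5p, where HFD is higher, and overlap for the other 8.

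In the edgeR test, 0 of the 24 endocrine miRNAs passed in either direction, 1 had an unadjusted p under 0.05, and DESeq2 called 0 of them. Over all tested miRNAs 0.246% passed with edgeR, 8.37% had an unadjusted p under 0.05, and 0.739% passed with DESeq2. Their median log2 fold change was 0.28, beside 0.03 for all 405 other tested miRNAs. The 26 miRNAs listed for beta-cell function, chosen for reported roles in insulin secretion or beta-cell mass, had 25 tested members. Of these 1 rose, miR-146a-5p, and 0 fell, beside the 0.246% of all tested miRNAs. The 25 tested members had a median log2 fold change of 0.36, beside 0.03 for all others. This median is not independent of that of the endocrine list, since both lists hold miR-148a-3p, miR-7a-5p and miR-7b-5p, among others. A single member on a list of this length is no result about the list. The most abundant were miR-148a-3p (0.56 ± 0.38, SE), miR-7a-5p (0.37 ± 0.36), miR-7b-5p (0.36 ± 0.36) and miR-21a-5p (1.30 ± 0.32), a miRNA induced by stress, and none of these 4 passed (edgeR adjusted p = 0.631, 0.683, 0.686 and 0.204). Without NCD 3 these log2 fold changes were 0.30, 0.16, 0.085 and 1.21, without HFD 3 that of miR-7a-5p was 0.12, and without NCD 2 those of miR-148a-3p, miR-7a-5p and miR-7b-5p were 0.86, 0.59 and 0.66. DESeq2 called 2 of the tested members, miR-146a-5p and miR-21a-5p, beside 0.739% of all.

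The miRNAs whose pattern over the 6 libraries was nearest to that of miR-375-3p were sought among the 112 others with a mean of at least 100 CPM. Likeness was the root mean square difference of log2 levels after centring each miRNA on its mean, so that a smaller value is a closer match. miR-375-3p itself deviated from its mean by 0.51 on this measure, the rank of 27 among 113, and the median difference of the 112 from it was 0.55. The nearest was miR-10a-5p, encoded in a Hox cluster, at 0.19. It had 979, 952 and 555 CPM in HFD 1, 2 and 3, and 1026, 1225 and 400.1 CPM in NCD 1, 2 and 3. The next were miR-409-3p of the imprinted Dlk1-Dio3 region at 0.25, the beta-cell miRNA miR-184-3p at 0.26, miR-183-5p of the sensory and endocrine miR-183 cluster at 0.27 and let-7c-5p at 0.28. miR-184-3p had 2431, 3193 and 1314 CPM in HFD 1, 2 and 3, against 2734, 2333 and 1632 CPM in NCD 1, 2 and 3. miR-10a-5p and miR-184-3p were, like miR-375-3p, low in HFD 3 and NCD 3 beside the other libraries of their diet. These 5 share the TMM factors with miR-375-3p, the factor of 1.73 of NCD 3 included.

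Markers of other cells took few reads beside miR-375-3p. The acinar miRNAs, of the enzyme-secreting pancreas around the islets, are miR-217-5p, miR-216a-5p, miR-216a-3p, miR-216b-5p and miR-216b-3p. Per 10000 reads of miR-375-3p, these 5 summed to 0.570, 3.34 and 8.81 reads in HFD 1, 2 and 3, against 2.39, 4.54 and 24.4 reads in NCD 1, 2 and 3. They were highest in NCD 3, where the TMM-scaled miR-375-3p level was lowest, and next in HFD 3, where the HFD level was lowest. This unit is divided by the miR-375-3p reads themselves. As a share of all reads they were also highest in NCD 3 (0.0723%) and HFD 3 (0.0205%). HFD 1 had the smallest share, 0.00169%, yet its miR-375-3p level was below those of HFD 2, NCD 1 and NCD 2. In HFD 1, miR-216a-5p, miR-216a-3p and miR-216b-3p had 0 reads. None of the 3 tested acinar miRNAs passed, and 3 of 3 had negative log2 fold changes, -0.84 for miR-217-5p, -1.38 for miR-216b-5p and -0.69 for miR-216a-3p. These values moved with single libraries, to -0.15, -0.56 and -0.094 without NCD 3, to -0.38, -0.89 and -0.14 without HFD 1, and to -1.48, -2.17 and -1.24 without HFD 3. The part of acinar RNA in the miR-375-3p values was not tested.

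The other marker lists were given in the same unit, reads per 10000 reads of miR-375-3p. The endothelial pair, miR-126a-3p and miR-126a-5p, summed to 8.79 to 12.8 in HFD and 14.8 to 20.2 in NCD libraries. The 5 leukocyte miRNAs, of which miR-142a-5p had the highest mean CPM, summed to 0.265 to 0.318 in HFD and 0.339 to 0.786 in NCD libraries. Leukocyte counts were low, with 18 to 98 reads of miR-142a-5p and 9 to 71 of miR-155-5p per library. The diets did not overlap for these 2 lists, nor for the 4 liver and muscle miRNAs, with 1.96 to 3.12 in HFD and 3.30 to 19.0 in NCD libraries, where NCD 1 was highest through miR-122-5p. For single miRNAs set against miR-375-3p, such a separation was found for 3.21% in each direction. The 5 stromal miRNAs, mainly miR-143-3p, summed to 56.9 to 119 and 41.1 to 88.6, and the 4 erythroid miRNAs to 1.35 to 3.71 and 1.04 to 6.82, in HFD and NCD libraries. Of these lists 0 members passed with edgeR or DESeq2, and 2, miR-122-5p and miR-206-3p of the liver and muscle list, had an unadjusted p under 0.05. The fitted log2 changes were -3.52 for miR-206-3p and -2.61 for miR-122-5p (edgeR adjusted p = 0.316 for each). DESeq2 gave no p for miR-122-5p, adjusted or unadjusted. Both passed with edgeR when no filter was applied (adjusted p = 1.62e-09 for each). Without NCD 2 both passed, at -4.09 (edgeR adjusted p = 0.00332) for miR-206-3p and -3.09 (edgeR adjusted p = 0.011) for miR-122-5p, and without NCD 3 miR-122-5p passed at -3.12 (edgeR adjusted p = 0.0468). Without NCD 1 neither passed (edgeR adjusted p = 0.829 for each), and the log2 fold changes were -1.69 for miR-206-3p and -0.59 for miR-122-5p. NCD 1 held 5103 reads of miR-122-5p and 400 of miR-206-3p, and no other library held more than 1105 and 157. The part of these miRNAs in the miR-375-3p share was not tested.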

How the data were processed

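Small RNA of pancreatic islets was sequenced in 3 HFD and 3 NCD libraries. Islet RNA was purified on RNeasy columns, which retain short RNA incompletely, and turned into libraries with an NEBNext small RNA kit, per the labels' protocols. Per the file headers, the deposited table holds a read count per miRNA and a TPM value. The authors' deposited TPM values equal counts per 1000000 of the listed rows' total, within a relative difference of 4.61e-09. No aligner, counting tool, build or miRNA release is named (not given in the sources used here).

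Counts were tested with edgeR 4.0.16 (R 4.3.3): filterByExpr (minimum count 10), TMM factors and the quasi-likelihood test with diet as the only term, Benjamini-Hochberg adjusted over 406 miRNAs, at a threshold of 0.05. Standard errors are the log2 fold change over the square root of the quasi-F statistic. Shares used exact permutation tests (scipy 1.17.1). Ratios within a library used a prior count of 0.5. Alternatives were other size factors, other filters, DESeq2 1.42.0, limma 3.58.1 (voom, and trend on log2(TPM + 1) or log2(TPM + 0.1)), a replicate block and leaving out each library. The steps were also run on simulated data with a common dispersion for all miRNAs, and the outcome is not given here. The hairpin was folded with RNAfold 2.7.2, and loci are from RefSeq and GENCODE M21 (GRCm38). The miR-375 arms, the lists and the rules were chosen with earlier results of these data known. The rule for named miRNAs took the 10 most abundant tested endocrine miRNAs, the 5 nearest in pattern, the acinar list, the lowest p in each direction, up to 8 miRNAs called under another scaling and the 4 most abundant of the beta-cell list. The lowest p among lower miRNAs was that of miR-206-3p, and miR-146a-5p was the 1 miRNA called under another scaling. Library totals ran from 7166712 to 11172255 counts.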

Additional observations from a re-analysis of the deposited data

How the results depend on the processing

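The miR-375-3p log2 fold change had an adjusted p of 0.455 to 0.984 over its 18 alternatives, and was negative in 13 and positive in 5. It was 0.054 with limma-voom and 0.058 with the replicate block (limma and edgeR adjusted p = 0.972 and 0.973), and spanned -0.37 to 0.22 with single libraries left out. Same-numbered libraries correlated at 0.17, -0.24 and 0.35 in their deviations from the mean of their diet. Deviations of 3 libraries from their own mean are not independent, so these values cannot show whether the numbers pair the libraries. The share difference was negative in all 9 of its alternatives, from -9.35 to -2.23 points with 1 library left out. The mean log2 ratio to the endocrine list ran from -0.61 to 0.23 in the same way. The difference of the log2 ratio to each of the 10 most abundant endocrine miRNAs was recomputed without each library, an alternative chosen after seeing the data. It kept its sign for miR-148a-3p (-0.69 to -0.30), miR-129-5p (0.28 to 0.70), miR-200a-3p (-1.07 to -0.28), miR-127-3p (-0.63 to -0.10) and miR-7b-5p (-0.71 to -0.06), and took both signs for the other 5.

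The median log2 fold change of the other miRNAs was -0.050 with RLE factors, -0.38 with library totals, -0.49 with totals without miR-375-3p and -0.026 with TMM factors computed without it, and ran from -0.061 to 0.076 with 1 library left out. The count of called miRNAs, 1 at first, was 0 with edgeR on library totals or on totals without miR-375-3p (42 and 63 with an unadjusted p under 0.05, 37 and 59 of them lower in HFD) and 0 with limma-trend at either pseudocount (34 and 33). It was 6 without a filter (2 higher and 4 lower), 3 with DESeq2, and ran from 0 (without NCD 1, 26 with an unadjusted p under 0.05) to 4 (without NCD 2) with 1 library left out. For each of these changes the cause was not tested. With totals without miR-375-3p the log2 fold changes of miR-7a-5p and miR-7b-5p took the other sign, at -0.055 and -0.037. The alternatives planned for miR-375-5p and for the arm ratio were not run, since the 5p arm was not analysed here. Each of the 6 libraries held at least 2403605 reads of miR-375-3p, so counting error was small beside the spread between libraries. The miR-375-3p log2 fold change also moved with the scaling.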
